A study of Mus musculus with 2 samples.

Results

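Cathepsins are the proteases of lysosomes, the acidic compartments in which a cell breaks down what it has taken up, and legumain is the lysosomal protease that trims several of them into their active form. The 9 genes described here are Ctsk, Ctsb, Ctsd, Ctsl, Ctss, Ctsz, Ctsc, Ctsh and Lgmn, taken by symbol from the 32285 genes of the deposited matrices. They were selected on measured values as well as on family, since their UMI levels in these libraries, among them the low Ctsk of knockout macrophages, were known when the list was drawn up. Their levels and ratios are therefore given as a description.

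The cells were the stromal vascular fraction of mouse epididymal fat, which is what remains of collagenase-digested fat once mature adipocytes have been spun off. 1 library came from mice with a myeloid conditional knockout of Camk2d (Camk2d-CKO) and 1 from wild-type mice, both fed a high-fat diet for 10 weeks and processed in a single batch with the 10x Chromium 3′ assay. The labels give neither the Cre driver, the deleted exons, the strain, the age nor whether animals were pooled, and a description shared by the samples speaks of embryonic hindlimb where the other fields speak of fat. Each genotype is 1 library with no replicate, so genotype and library cannot be told apart, no p-value is given, and every 95% interval below covers counting error only.

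Cysteine cathepsins B, K, L, S, H, C and Z share a papain-like fold and work with a cysteine in the active site, whereas cathepsin D uses a pair of aspartates and legumain cuts after asparagine. Cathepsin K is best known from osteoclasts, where it dissolves collagen, and cathepsin S from antigen-presenting cells, where it removes the invariant chain from class II molecules. In the fat of obese animals, macrophages gather around dying adipocytes and take up their lipid, and this lipid-associated state carries a large lysosomal compartment.

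The annotation of the build the libraries were mapped to (mm10; GENCODE vM21 positions) places Ctsk at chr3:95499256-95509362 on the plus strand, and its neighbour Ctss at chr3:95526786-95556403 on the same strand. Ctsc lies at chr7:88278085-88310888 on the plus strand, and Ctsd at chr7:142375911-142388038 on the minus strand. Ctsb lies at chr14:63122462-63145923, Ctsl at chr13:64359337-64370890, Ctsz at chr2:174427493-174439039, Ctsh at chr9:90054152-90076089 and Lgmn at chr12:102394084-102439813. Ctsk, Ctsh and Lgmn overlap no other annotated gene. Ctsd overlaps the protein-coding model Gm49369 on its own strand, so reads of these models can be split between them. Ctsb overlaps Fdft1, Ctsz overlaps Nelfcd, Ctsc overlaps Gm26522 and Ctsl overlaps Gm47123, each on the opposite strand, and Ctsl and Ctss each hold a processed pseudogene on their own strand.

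Sequence before the transcription start was read for the genes that take the most different courses below, from RefSeq windows on GRCm38.p6. Of the 9 genes, 7 had a window. The letters searched on both strands were CACGTG, the core of the element that the lysosomal transcription factors TFEB, TFE3 and MITF read, and CATGTG, a variant of it; capitals mark a match, and the pair do not overlap here. Ctsk, which followed the lipid-associated state, is shown by the 250 bases at chr3:95498960-95499209 on the plus strand. Ctsc, which followed the opposite state, is shown by the 250 bases at chr7:88277835-88278084 on the plus strand. Neither window holds either motif, which says only that these letters are not in these bases. Cathepsin D, whose level also followed lipid marker level, is shown by 30 bases around each of its matches, at chr7:142388048-142388077 (first motif base 245 bases before the RefSeq start) and at chr7:142387908-142387937 (98 bases before), both on the minus strand.
Ctsk: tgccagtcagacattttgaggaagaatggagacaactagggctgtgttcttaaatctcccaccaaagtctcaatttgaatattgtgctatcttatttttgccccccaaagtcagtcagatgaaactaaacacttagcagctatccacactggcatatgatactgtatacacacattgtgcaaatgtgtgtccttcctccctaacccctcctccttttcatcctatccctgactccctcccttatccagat
Ctsc: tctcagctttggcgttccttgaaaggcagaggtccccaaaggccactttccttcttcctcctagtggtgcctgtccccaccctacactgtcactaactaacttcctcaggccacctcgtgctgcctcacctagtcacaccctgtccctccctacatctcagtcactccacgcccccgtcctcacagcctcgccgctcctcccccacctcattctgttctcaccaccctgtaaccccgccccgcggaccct
Ctsd, upstream match: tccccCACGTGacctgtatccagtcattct
Ctsd, downstream match: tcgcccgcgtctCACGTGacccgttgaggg
Of the 250 bases before the RefSeq start of Ctsd, 211 lie in exons of longer annotated transcripts. CACGTG was also found before the RefSeq start of Ctsl (236 bases before) and before 1 of the 2 Lgmn starts (49 bases before), so 3 genes held it. CATGTG was found only before that same Lgmn start (161 bases before). The Ctsl window and that Lgmn window lie inside the annotated genes, with 48 and 0 of their bases in annotated exons. Of all 32851 RefSeq windows of this length, 6.02% held CACGTG and 12.25% held CATGTG. A match describes letters and shows no binding.

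Both libraries held cells of every type compared. The knockout library gave 87015918 unique molecular identifiers (UMIs, 1 per captured transcript) over 10631 barcodes and the wild-type library 75436677 over 15555, of which 9200 and 14854 cells were kept, with medians of 8257 and 3122.5 UMIs. Cells were sorted into 17 gates by marker UMIs per 10000 UMIs, and 17.9% of knockout and 40.0% of wild-type cells, with medians of 1508 and 1882 UMIs, fell in no gate. The macrophage gate held 1112 knockout and 1941 wild-type cells. It was divided into lipid-associated cells (280 and 787), resident cells (416 and 504), cells with both programs (20 and 24) and cells outside both (396 and 626). Progenitors and fibroblasts numbered 4109 and 3730. These gates are ranges and not types, for 11.9% of knockout and 13.8% of wild-type macrophages lay within 20% of the lipid limit. The libraries shared 48 barcodes, 40 of them among kept cells.

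Camk2d, the targeted gene, was at 24.7 CPM (UMIs of a gene per 1000000 UMIs of its gate) in knockout and 45.2 CPM in wild-type macrophages (359 and 738 UMIs), which is a log2 ratio (knockout to wild type, here and below) of -0.87 (-1.06 to -0.69). It was -1.13 in lipid-associated and -0.52 in resident macrophages, and -0.09 in progenitors. In monocytes it was 0.45 (-0.12 to 1.04). A 3′ tag may fall outside the deleted exons, which the labels do not name, and the deletion is not checked by these levels.

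All levels below are on this CPM scale. A 3′ tag is counted once per transcript, so levels are not divided by gene length. Among the 13 gates with at least 50 cells in each library, Ctsk, Ctsb, Ctsd, Ctsl, Ctss and Ctsz were highest in lipid-associated macrophages in both libraries, while Ctsc and Ctsh were highest in resident macrophages. Lgmn was highest in lipid-associated macrophages of the knockout library (925 CPM, against 871 in resident cells) and in resident macrophages of the wild type (891 CPM, against 729). The top gate was thus the same in both libraries for 8 of the 9 genes. Mature dendritic cells, with 48 knockout cells, are not ranked, but held more Ctsh than any ranked gate, at 748 and 653 CPM. Macrophages with both programs (20 and 24 cells), also unranked, held more Ctsb than lipid-associated cells in both libraries (6577 and 6047 CPM, against 5898 and 5734). They held more Lgmn than any ranked gate in the knockout (1036 CPM), with 793 CPM in the wild type. After lipid-associated macrophages, the highest ranked Ctsk and Ctsl levels were those of the progenitors outside the interstitial gate, in both libraries (162 and 336 CPM of Ctsk, 980.5 and 1037 of Ctsl). Wild-type Ctsk did not differ beyond counting error between macrophages outside both states (128 CPM) and interstitial progenitors (126 CPM).

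**Figure D1:**
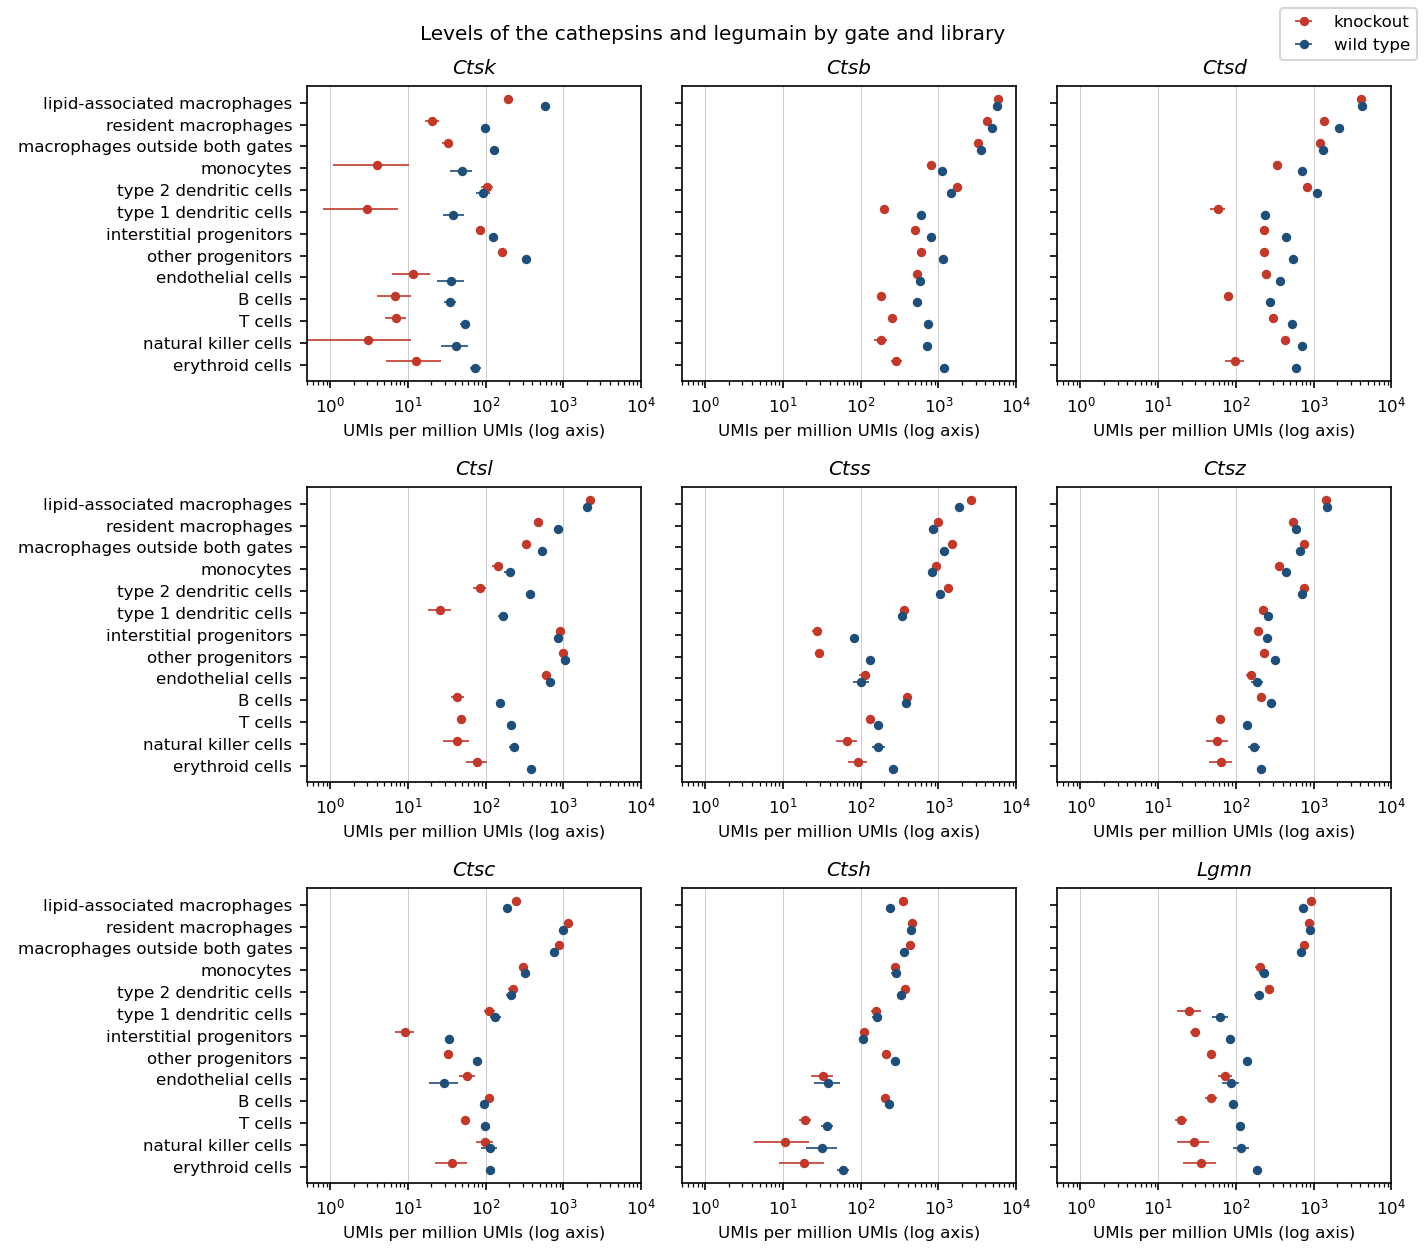
Levels of the 9 genes (CPM, log axis) in 13 gates of the knockout (red) and wild-type (blue) library, with 95% intervals for counting error. Ctsk and Ctsl are high in lipid-associated macrophages and again in progenitors, whereas Ctsc is highest in resident macrophages and lowest in interstitial progenitors of the knockout library.

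Ctsk and Ctsl, endopeptidases that can cut matrix proteins, were found in progenitors as well as in macrophages, mostly in progenitors in the knockout library and in near-equal shares in the wild type. Of all Ctsk UMIs in kept cells, progenitors held 76.5% in the knockout, against 34.6% in the wild type, and macrophages 15.4% and 33.7%. For Ctsl the progenitors held 64.0% and 31.3%, and macrophages 24.4% and 32.2%. The progenitor gate held 44.7% of kept knockout and 25.1% of kept wild-type cells, which enters these shares. Cells in no gate held 5.26% of knockout and 27.7% of wild-type Ctsk UMIs, which enters the Ctsk shares as well.

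Ctss, Lgmn and Ctsc UMIs lay mainly in macrophages in both libraries. These held 62.1% (knockout) and 52.5% (wild type) of Ctss UMIs, 69.3% and 52.3% of those of Lgmn, and 68.0% and 55.0% of those of Ctsc, against 2.88% and 5.90%, 10.04% and 11.8%, and 7.45% and 10.3% in progenitors. Ctsb and Ctsd, broad digestive proteases, had 58.0% and 49.4%, and 55.5% and 48.9%, of their UMIs in macrophages. The exopeptidases Ctsz and Ctsh were spread more evenly. For Ctsh, an aminopeptidase, progenitors held 44.5% and 33.5% and macrophages 32.9% and 33.4%.

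**Figure D2:**
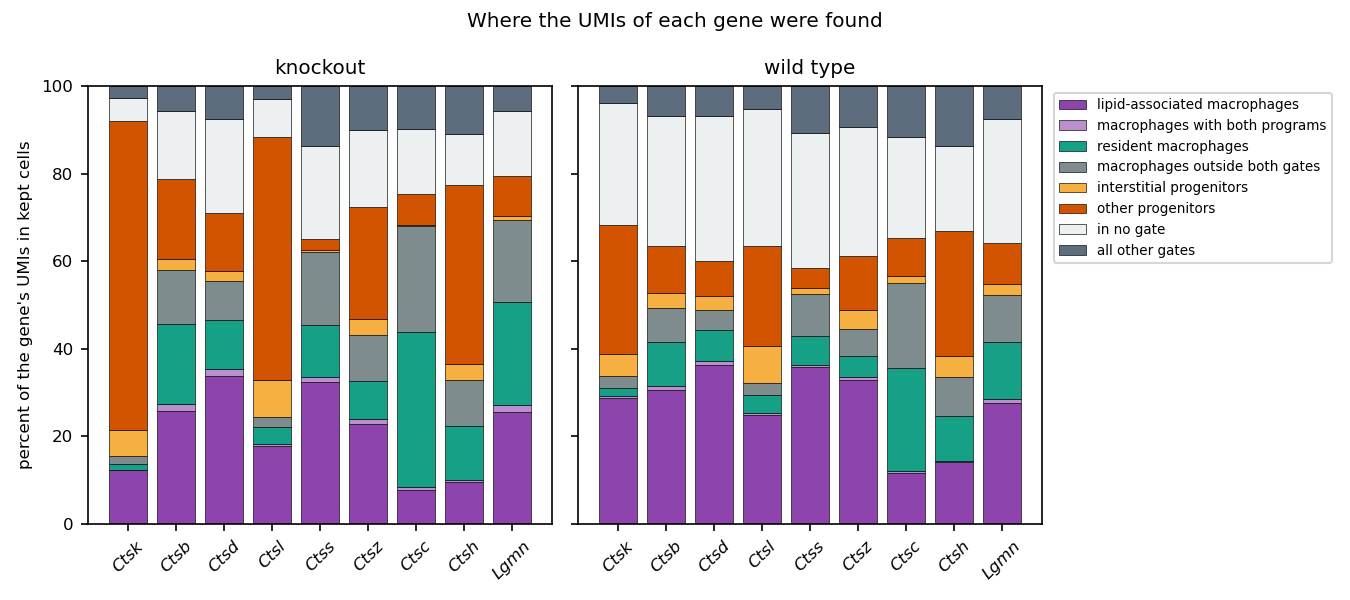
Percent of each gene's UMIs in kept cells that lay in each macrophage state, in interstitial and other progenitors, in all other gates and in no gate, for the knockout (left) and wild-type library (right). Progenitors hold most Ctsk and Ctsl UMIs of the knockout library, while macrophage states hold most of those of Lgmn, Ctsc and Ctss in both libraries.

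Across the 26 combinations of gate and library (log2 of CPM + 10), the gene most like Ctsk among 4867 searched was Pcdh7, a protocadherin (r = 0.95), followed by Gpnmb, a transmembrane glycoprotein of lipid-laden macrophages (0.90), and Lhfpl2 (0.89). Lgmn went with the macrophage genes Adgre1 (0.98), C3ar1 (0.97) and C1qb (0.97), and Ctsb with Tmem106a (0.98) and the lysosomal progranulin gene Grn (0.96). Ctsd was closest to Pld3 (0.95), Ctsl to the creatine transporter gene Slc6a8 (0.94), Ctss to the inhibitory receptor gene Pirb (0.97) and Ctsz to Aldh3b1 (0.94). Ctsc was closest to Dclre1c (0.94) and to the Fc receptor gene Fcgr2b (0.93), and Ctsh to the purinergic receptor gene P2rx4 (0.93). Among the 9 genes themselves the highest correlation was between Ctsb and Lgmn (0.96), and Ctsk was nearer to Ctsl (0.79) than to Ctsc (0.06). These points share 2 libraries, their depth and their free RNA, and no p is given. Adgre1, C1qb and Gpnmb were also markers that drew the gates, so their correlations across gates are partly set by the gating.

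Of the 9 genes, Ctsk had the ratio farthest from 0 in macrophages. Its level was 197 CPM (185 to 209.8; 978 UMIs) in lipid-associated macrophages of the knockout library and 581 CPM (565 to 597; 5169 UMIs) in those of the wild type. Resident macrophages held 20.7 and 97.3 CPM, and macrophages outside both states 32.6 and 128. The knockout level was the lower of the pair in each state, with log2 ratios of -1.56 (-1.66 to -1.46), -2.23 (-2.57 to -1.91) and -1.98 (-2.26 to -1.71). Over all macrophages Ctsk was at 84.9 and 372 CPM, a log2 ratio of -2.13 (-2.22 to -2.04), or 4.38-fold higher in the wild type.

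The pooled Ctsk ratio carries the mix of states as well. Lipid-associated cells made up 25.2% (22.7 to 27.8) of knockout and 40.5% (38.4 to 42.8) of wild-type macrophages, and with each state weighted equally the log2 ratio was -1.69. As the mean of per-cell levels it was -1.71 over all macrophages and -1.18 in lipid-associated cells. In Leiden clusters, groups of cells with similar expression made without the 9 genes, the ratio was -2.13 in cluster 2, whose most common gate was lipid-associated, -2.48 in cluster 10, mostly resident, and -2.86 in cluster 3. Of cluster 3 only 19.4% of cells lay in its most common gate, macrophages outside both states, and its leading genes include Adgre4, Cx3cr1 and Ear2, known from patrolling monocytes. Cluster 14, with 88 knockout and 3196 wild-type cells of low depth (medians of 764 and 1529.5 UMIs) and 3.68% of cells in its most common gate, went the other way, at 319 and 167 CPM (0.93).

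T cells, which should lack the gene and so give a measure of free RNA in the droplets, held 7.0 and 53.8 CPM of Ctsk in the knockout and wild type. All 8 progenitor markers were lower in knockout than in wild-type macrophages, their summed level being 272 and 817 CPM, with none at 0. The part of free RNA in the Ctsk difference was not tested beyond the following subtraction. With the Ctsk UMIs of a T cell taken off each macrophage, the log2 ratio became -2.08 over all macrophages (81.7 and 346 CPM), -1.53 in lipid-associated cells and -1.93 in resident cells, where 32.8% of the wild-type level was taken off.

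A fold of 1.5 was set as the size at which a gene counts as higher or lower, among genes that averaged 10 CPM or more and had 30 or more UMIs in the library where they were higher. In all macrophages 1 of the 9 genes, Ctsk, was lower in the knockout library at that size, where 4.67% of 7280 genes were, and 1, Ctsc, was higher, where 2.98% were. In lipid-associated cells Ctsk alone of the 9 was lower (4.58% of all genes) and 0 were higher (2.90%). That 0 did not hold under every setting: Ctsh passed with the median of all genes taken off (0.60), Ctsh and Ctsc after the T-cell subtraction (0.60 and 0.59) and Ctsl with gate limits doubled (1.02). In resident cells Ctsk, Ctsd and Ctsl were lower (8.32% of all genes) and 0 higher (2.82%); Ctsd no longer passed with the median of all genes taken off (-0.51). In macrophages outside both states Ctsk and Ctsl were lower (7.55%) and 0 higher (2.89%), and Ctsl no longer passed after the T-cell subtraction (-0.35). Over all macrophages Ctsl passed as lower without the richest cell of each library (-0.59). The median log2 ratio of the 9 was 0.13 in lipid-associated cells, beside -0.06 for all genes, and -0.16 beside -0.11 in all macrophages.

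**Figure D3:**
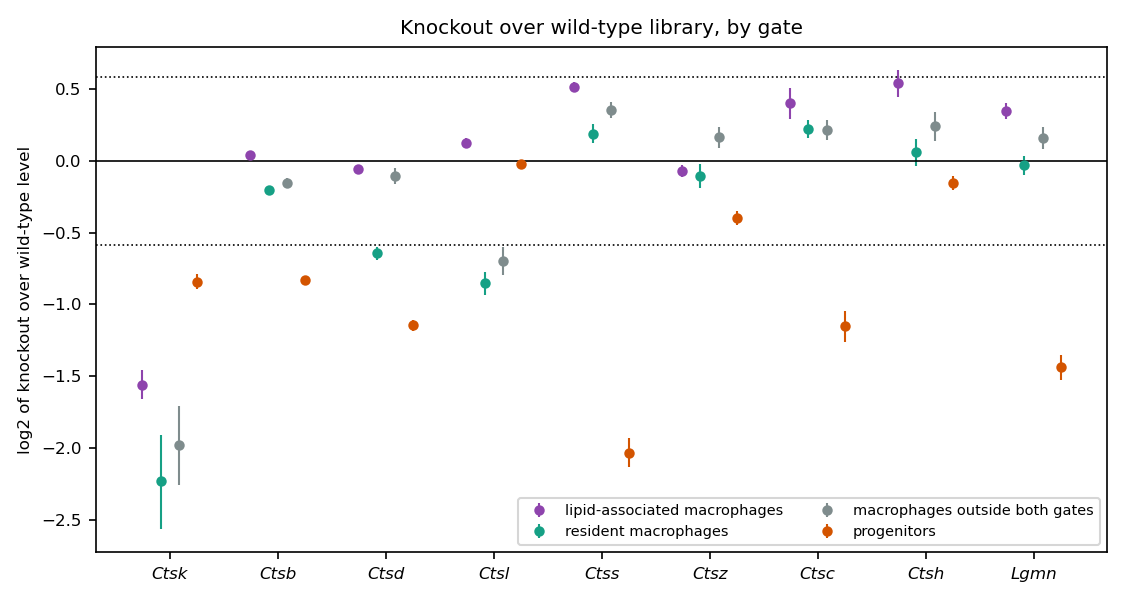
The log2 ratio of knockout over wild-type level of each gene in 3 macrophage states and in progenitors, with 95% intervals for counting error; dotted lines mark a 1.5-fold difference. Ctsk lies at -1.56 or lower in each macrophage state, while Ctss, Ctsc and Ctsh lie at or above 0 there and Ctss, Lgmn, Ctsc and Ctsd lie lowest in progenitors.

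Most Ctsk of the macrophages lay in few cells. A level of 1000 CPM or more, a limit set after the values were seen, was reached by 22 of 1112 knockout macrophages (1.98%, 1.24 to 2.98) and by 167 of 1941 wild-type macrophages (8.60%, 7.39 to 9.94). These cells held 54.3% and 71.5% of the macrophages' Ctsk UMIs. Their median depth was 9921 and 10103 UMIs. The Ctsk level within them, 2350.3 and 2229 CPM, is largely set by the limit that picked them and compares nothing between the libraries. In all other macrophages Ctsk was at 39.6 and 121 CPM, beside the 7.0 and 53.8 CPM of T cells.

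Within the lipid-associated state the Ctsk-high cells were 18 of 280 in the knockout (6.43%, 3.85 to 9.97) and 136 of 787 in the wild type (17.3%, 14.7 to 20.1), and held 65.0% and 77.7% of that state's Ctsk UMIs. Resident macrophages had 1 of 416 and 14 of 504 such cells, and macrophages outside both states 2 of 396 and 14 of 626. The fewer Ctsk-high cells of the knockout library were seen at even depth too. With each cell thinned to 2000 UMIs, 18 of 259 knockout (6.95%) and 153 of 759 wild-type (20.2%) lipid-associated cells kept at least 2 Ctsk UMIs.

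**Figure D4:**
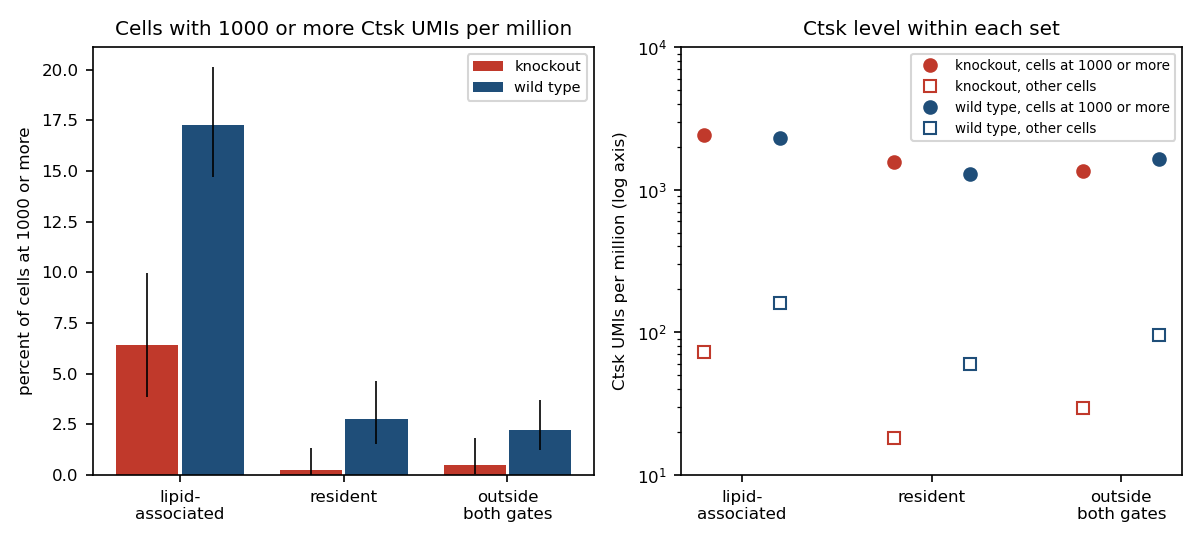
Left, percent of cells with at least 1000 CPM of Ctsk, without thinning, in 3 macrophage states of the knockout (red) and wild-type (blue) library, with 95% exact binomial intervals. Right, the Ctsk level (log axis) within those cells (filled) and within all others (open): the filled points are largely set by the limit itself, and the open points are lower in the knockout library.

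Any Ctsk UMI at all was found, at 2000 UMIs per cell, in 12.4% of knockout and 33.1% of wild-type lipid-associated macrophages, and in 3.14% and 14.8% of resident ones. The same share in T cells, which should lack the gene, was 1.03% and 10.2%. Without thinning the shares were 28.2% and 51.7% in lipid-associated macrophages (median 14904 and 9983 UMIs; 21 and 28 cells under 2000 UMIs were left out of the thinned share) and 2.79% and 18.9% in T cells (median 5139.5 and 3832 UMIs). Wild-type resident cells stood 14.8% to 10.2% against T cells of their own library, a narrower gap than in lipid-associated cells.

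The Ctsk-high macrophages differed from the rest in other cathepsins as well. They held 6970.1 CPM of Ctsl in the knockout, against 3135 in the wild type, against 909 and 1189 in all other macrophages. 1 cell held 44.4% of the knockout Ctsl UMIs, and without it the level was 4546 CPM. Ctsd was at 6100.2 and 4677 CPM (2209 and 2913 in the others) and Ctsz at 1964 and 1701 (902 and 1035). Ctsc was lower in them, at 189 and 199.7 CPM against 751 and 525. Lgmn differed little, at 909 and 774 CPM against 858 and 749.9. Most Ctsk-high cells were lipid-associated (18 of 22 and 136 of 167), so the gaps between states enter these values. The whole lipid-associated gate held 2204 and 2021 CPM of Ctsl and 4074 and 4235 of Ctsd. Its Ctsz was at 1432 and 1502 CPM and its Ctsc at 247 and 187.

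For the Ctsk-high cells 5 further genes were read, of which all but Pcdh7, the gene most like Ctsk across gates, were chosen after values were seen. Gpnmb was at 3953 and 2641 CPM, against 437 and 761 in other macrophages, and the lipid receptor gene Trem2 at 2305 and 2198 against 784 and 1267. Pcdh7 was at 45.6 and 177 CPM against 36.4 and 96.5. Acp5, the tartrate-resistant acid phosphatase of osteoclasts, was at 453 and 152 CPM against 53.2 and 69.6, with a UMI in 8 of the 22 knockout and 90 of the 167 wild-type cells. Col1a1, a collagen gene of the Ctsk-expressing progenitors, was at 14.0 and 41.6 CPM, against 9.47 and 53.8 in other macrophages. Gpnmb and Trem2 helped define the state that most of these cells belong to (18 of 22 and 136 of 167).

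A single cell can carry much of such a sum. In the knockout library 1 lipid-associated cell held 121 of the 978 Ctsk UMIs (12.4%) and 1 held 1488 of the 10938 Ctsl UMIs (13.6%). The 5% of lipid-associated cells richest in each gene held 73.6% of knockout and 47.0% of wild-type Ctsk UMIs, and 58.2% and 37.4% of those of Ctsl. The same share was 18.6% and 15.8% for Lgmn and 19.6% and 19.4% for Ctsh, which were spread far more evenly over these cells.

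Cathepsin L itself differed between states more than between libraries in lipid-associated cells. It was at 2204 CPM in the knockout, against 2021 in the wild type there (log2 0.13, 0.09 to 0.16), a direction that changes to -0.05 when the 1 cell richest in Ctsl is left out of each library. In resident macrophages Ctsl was at 472 and 854 CPM (-0.85, -0.93 to -0.77) and outside both states at 333 and 539 CPM (-0.69). T cells held 48.4 and 215 CPM of Ctsl. Subtracting that background moved the resident ratio to -0.70 and the ratio outside both states to -0.35.

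Cathepsin D, the aspartic protease, was at 4074 and 4235 CPM in lipid-associated cells (log2 -0.06, or 0.00 with the median of all genes taken off). It was at 1373 and 2146 CPM in resident cells (-0.64, -0.69 to -0.60) and at 1223 and 1315 outside both states (-0.10, or 0.15 after the T-cell background is taken off). Ctsb was close to level, at 5898 and 5734 CPM in lipid-associated (0.04), 4241 and 4877 in resident (-0.20) and 3182 and 3540.2 CPM in other macrophages (-0.15, or 0.00 after that background is taken off). Almost every lipid-associated macrophage held a Ctsb UMI at 2000 UMIs per cell (99.6% and 99.9%), but so did 38.9% and 74.4% of T cells.

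Ctss, the class II processing protease, leaned the other way, with the knockout level above the wild-type level in each state. Lipid-associated cells held 2609 and 1829 CPM (log2 0.51, 0.48 to 0.55), cells outside both states 1505 and 1175 (0.36) and resident cells 977 and 857 (0.19). None of these reached 1.5-fold. The few macrophages with both programs did, at 1758 and 1071 CPM (0.72, 0.49 to 0.94). The T-cell level of Ctss, 131 and 167 CPM, was low beside them and higher in the wild type, the opposite direction.

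Class II genes, whose products Ctss helps load, were next counted in macrophages. Of 8 measured genes of this list 2 were at least 1.5-fold higher (2.98% of all genes), 0 were lower (4.67%) and 6 did not reach that size, with a median of 0.55 beside -0.11 for all genes. In lipid-associated cells 6 of 8 were higher (2.90% of all genes), with a median of 0.70 beside -0.06. Cd74, the invariant chain that cathepsin S cuts, was at 9070 and 6230 CPM in macrophages (0.54). H2-Eb1, a class II beta chain, was at 4011 and 2587 CPM (0.63), while Ifi30, a lysosomal thiol reductase of the same route, was at -0.25.

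The exopeptidases took different courses. Ctsz, a carboxypeptidase, was near level, at 1432 and 1502 CPM in lipid-associated cells (log2 -0.07, or 0.08 with the gate limits doubled) and 547 and 589 in resident cells (-0.11, or 0.03 with the median of all genes or the T-cell background taken off). Ctsh was at 347 and 239 CPM in lipid-associated (0.54, 0.45 to 0.63), 460 and 442 in resident and 428 and 362 CPM in other macrophages. Its knockout levels in resident cells, cells outside both states, type 2 dendritic cells and lipid-associated cells overlapped in their intervals from each to the next.

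Ctsc, which activates the serine proteases of granules, was at 1145 and 981 CPM in resident macrophages, 869 and 749.7 outside both states and only 247 and 187 in lipid-associated ones. Its ratio over all macrophages, 0.61 (0.56 to 0.65; 740.5 and 486 CPM), was larger than in any single state compared (0.22 in resident, 0.21 in other and 0.40 in lipid-associated cells). With equal weight per state it no longer reached 1.5-fold, and with gate limits doubled the lipid-associated ratio was -0.07. Resident cells, the richest in Ctsc, made up 37.4% of knockout and 26.0% of wild-type macrophages.

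Lgmn, which trims several procathepsins, was at 925 and 729 CPM in lipid-associated cells (0.34, 0.29 to 0.40), 871 and 891 in resident cells (-0.03, -0.10 to 0.04; 0.11 with the median of all genes taken off and 0.06 after T-cell subtraction) and 759 and 680 in other macrophages (0.16). Among the 9 genes its level differed least between these states in both libraries.

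The states were next read as a gradient, by binning all macrophages by their lipid marker UMIs per 10000 UMIs. On that scale the T cells had medians of 4.6 (knockout) and 24.9 (wild type). The lowest bin held 261 knockout and 63 wild-type macrophages. The same bin may therefore not stand for the same state in each library. How far free RNA moves cells between bins was not tested. From the lowest bin (under 25) to the highest (200 or more), Ctsk went from 9.93 to 419.9 CPM in the knockout, and from 76.0 to 828 CPM in the wild type. The bins between held 25.8, 42.5 and 64.4 CPM in the knockout and 78.7, 156 and 319 in the wild type. The knockout level was thus low until the last bin, which held 90 knockout and 333 wild-type cells, and the log2 ratio was -2.31 in the bin from 100 to 200 and -0.98 in the last.

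Ctsl took the same form. In the knockout it held 441, 378, 404, 691 and 4809 CPM over the 5 bins, and in the wild type 596, 717, 673, 923 and 3050.1 CPM. The direction between libraries was lower in the knockout in the first 4 bins (-0.43, -0.93, -0.74 and -0.42) and higher in the last (0.66). The cell with 1488 Ctsl UMIs lies in that last bin, and without the richest cell of each library its levels were 4064 and 2979 CPM (0.45). Ctsd climbed over the bins more evenly, from 1053 to 6279 CPM (knockout) and from 1520 to 5338 in the wild type.

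Ctss and Ctsz were higher with each step of lipid marker level, Ctss from 830.1 to 3143 and from 762 to 2093 CPM and Ctsz from 463 to 1951 and from 451 to 1897. Ctsc ran against the gradient, from 1291 to 115 CPM (knockout) and from 1128 to 104 in the wild type. Ctsh ran down less, from 485 to 335 and from 379.9 to 216 CPM. Lgmn was nearly flat, between 812 and 991 CPM (knockout) and between 724 and 793 in the wild type. Ordered by resident marker level instead, Ctsc went from 337 to 1231 CPM and from 226 to 987 between the lowest and highest bin, and Ctsk from 169 to 19.6 and from 445 to 77.1.

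**Figure D5:**
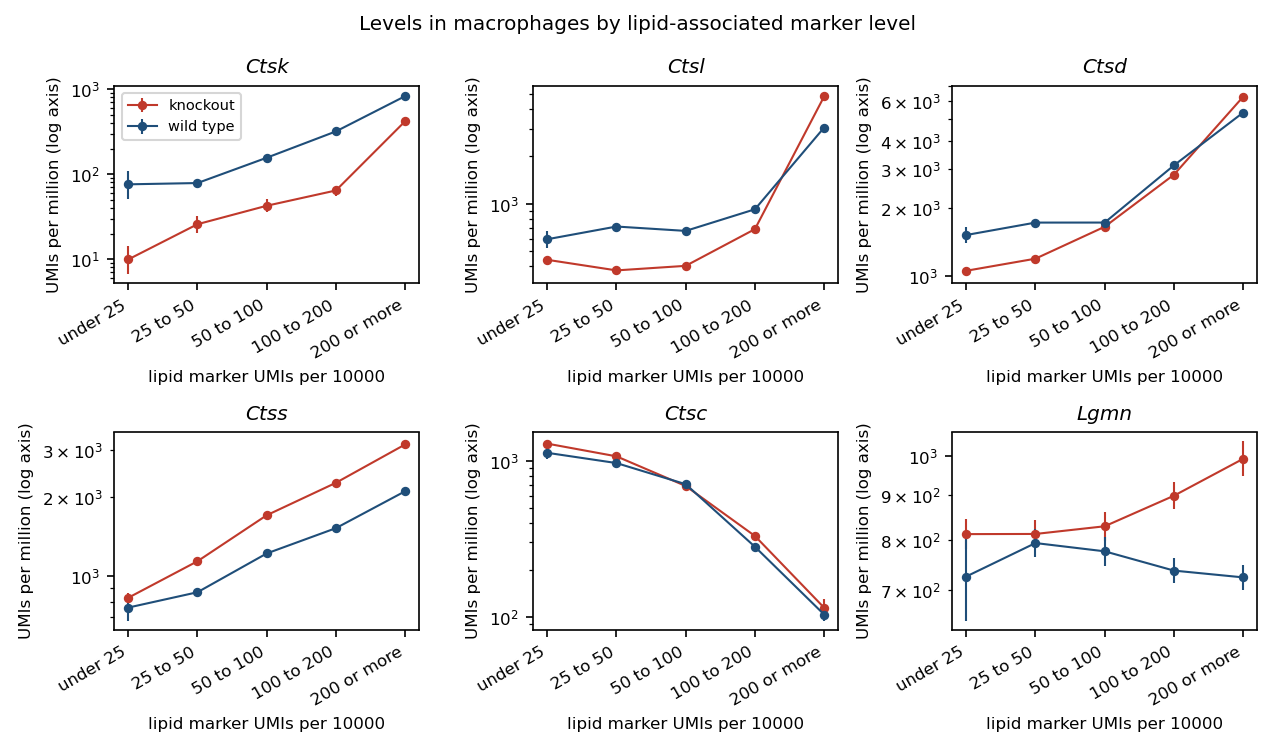
Level of 6 of the genes (CPM, log axis) in macrophages binned by lipid-associated marker UMIs per 10000 UMIs, for the knockout (red) and wild-type (blue) library, with 95% intervals for counting error. Ctsk of the knockout library and Ctsl of both libraries turn up in the last bin, wild-type Ctsk climbs over several bins, Ctsc runs down in both libraries and Lgmn stays nearly flat.

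Dendritic cells carried little Ctsk. In type 1 dendritic cells it was at 2.96 CPM (4 UMIs) and 38.6 CPM. In mature dendritic cells it was at 0 of 447799 UMIs in the knockout, which allows up to 6.70 CPM, and 51.7 CPM in the wild type. In CPM all were at or below the T cells of their library. With a T cell's UMIs taken off each cell, 9.36 CPM (type 1) and 14.3 CPM (mature) were left in the wild type. In the knockout 0.05 CPM and less than nothing were left. In the type 2 gate Ctsk was at 104 CPM in 106 knockout and 93.1 CPM in 164 wild-type cells (log2 0.17, -0.24 to 0.57). These values rest on single cells: 1 knockout cell held 120 of 127 UMIs and 1 wild-type cell 44 of 89. Without them the levels were 6.20 and 47.5 CPM (-2.94). Of the type 2 gate, 55 knockout and 78 wild-type cells lay in the dendritic cluster 11, where Ctsk was at 8.30 and 39.1 CPM. Another 26 and 33 cells lay in cluster 2, with 0 and 12 UMIs of the dendritic marker Cd209a and 125 and 82 of Trem2, and 21 and 39 in cluster 3. Values of the whole gate therefore mix in cells that cluster with macrophages. The knockout cell with 120 Ctsk UMIs was in cluster 2.

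In the same cells of cluster 11 Ctss was the highest of the 9, at 913 and 911 CPM. Ctsh was at 505 and 473 CPM, Ctsz at 488 and 529, Ctsb at 427 and 753, Ctsd at 120 and 371 and Ctsl at 39.9 and 199.6. Lower knockout values of Ctsb, Ctsd and Ctsl stood beside T-cell levels that were lower in the knockout as well (249.9 and 732, 304 and 523, and 48.4 and 215 CPM). Over the whole type 2 gate Ctsl alone of the 9 was lower by 1.5-fold or more (84.7 and 373 CPM, log2 -2.14; -0.97 with gates set on thinned cells), where 7.69% of 4576 genes were, and 0 were higher, where 9.27% were. Across the settings Ctsb, Ctsd, Ctss, Lgmn and Ctsk each passed in at least 1, so the counts in this gate depend on the setting. Ctss was at 1332 and 1031 CPM (0.37, or 0.04 without the 1 richest cell of each library).

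Monocytes, the blood-borne forerunners of macrophages, held 4.01 CPM of Ctsk in the knockout (4 UMIs), against 49.5 in the wild type, again no more than T cells in CPM. With a T cell's UMIs taken off each cell, 8.91 CPM was left in the wild type and less than nothing in the knockout. Monocytes already carried Ctss, at 929 and 816 CPM, and Ctsc, at 304 and 323. Ctsb was at 802 and 1119 CPM and Lgmn at 203 and 231, each far under its level in macrophages.

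Adipose progenitors and fibroblasts are not myeloid and held a set of cathepsins of their own. Ctsl was at 969 CPM in the knockout, against 983 in the wild type (log2 -0.02, -0.04 to 0.00; 0.07 with the median of all genes taken off and 0.16 after T-cell subtraction), found in 83.4% and 82.9% of cells at 2000 UMIs. Ctsk was at 151 and 271 CPM (-0.84, -0.89 to -0.79), Ctsz at 223 and 294 (-0.40) and Ctsh at 199 and 221 (-0.15).

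Within progenitors, Ctsk differed by state. Interstitial progenitors, marked by Dpp4 and Pi16, held 83.8 and 126 CPM (log2 -0.59), and the other progenitors 162 and 336 CPM (-1.05). Unlike in macrophages, the UMIs were spread over many cells, with 61.9% and 64.8% of the other progenitors holding at least 1 (25.05% and 42.9% at 2000 UMIs). Cells at 1000 CPM or more held 4.28% and 20.9% of the Ctsk UMIs of the other progenitors, at unequal depth (medians of 9968 and 5528 UMIs). With each cell thinned to 2000 UMIs, 5.72% of knockout and 13.5% of wild-type other progenitors kept at least 2 Ctsk UMIs. Cluster 0 gave 169 and 366 CPM (-1.11), and cluster 1, with 1918 knockout and 117 wild-type cells, 163 and 356 (-1.13).

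At 1.5-fold, 6 of the 9 genes were lower in knockout progenitors (Ctsk, Ctsb, Ctsd, Ctss, Ctsc and Lgmn), where 7.41% of 7989 genes were, and 0 were higher, where 3.44% were. Their median log2 ratio was -0.84 beside -0.09 for all genes. Ctss was at 28.5 and 117 CPM (-2.03), Lgmn at 44.7 and 121 (-1.44), Ctsc at 29.2 and 64.9 (-1.15), Ctsd at 229 and 507 (-1.15) and Ctsb at 579 and 1027 (-0.83).

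Macrophage transcripts moved with these in progenitors. All 9 macrophage markers (C1qa, C1qb, C1qc, Adgre1, Csf1r, Fcgr1, Mertk, Ms4a7 and Cd68) were lower in knockout than in wild-type progenitors, with a summed level of 147 and 591 CPM, a log2 ratio of -2.01, and none at 0. Lyz2 was at 115 and 443 CPM, and 6 of 7 measured class II genes were lower, where 7.41% of all genes were (median -1.77). After the T-cell UMIs were taken off, less than nothing was left of Ctss and Ctsc in knockout progenitors and 6.40 and 0.67 CPM in the wild type. T cells can carry Ctss, Ctsc and Ctsd transcripts of their own, and how far the subtraction overshoots for these genes was not tested.

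That subtraction left 2 genes lower at 1.5-fold in progenitors, Ctsk (147 and 236 CPM, log2 -0.68) and Ctsd (46.1 and 162 CPM, -1.81; 79.9% and 68.1% taken off). Ctss and Ctsc left the count because their knockout values fell below 0 (-50.5 and -3.22 CPM) and gave no ratio. No share of all genes is given after the subtraction, so this count has no background beside it. Ctsb went to 428 and 545 CPM (-0.35) and Lgmn to 33.0 and 47.2 (-0.52). From Ctsk 2.78% and 13.1% were taken off, from Ctsl 3.0% and 14.4% and from Ctsh 5.84% and 11.0%.

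The rest of the lysosome gave a setting for these values in macrophages. Of 17 measured subunits of the proton pump that acidifies lysosomes, 0 were higher or lower by 1.5-fold (median log2 -0.20), with Atp6v0c at 811 and 895 CPM (-0.14), Atp6v0d2 at 232 and 335 (-0.53) and Atp6ap2 at 0.19. Of 10 lysosomal membrane genes 0 passed (median 0.05), with Cd63 at 1146 and 1570 CPM (-0.45) and Lamp2 at 0.24. Among 26 other hydrolases and activators 1 was lower, Naglu (-0.60), and 0 higher (median -0.13), with Psap at 3031 and 3348 CPM (-0.14) and Manba at 0.44. Beside the 4.67% of all genes lower and 2.98% higher, few of these genes passed. These pooled values carry the mix of states (25.2% of knockout and 40.5% of wild-type macrophages were lipid-associated), and Cd63 helped define that state. In lipid-associated cells the medians were -0.05 (pump), 0.06 (membrane) and 0.07 (hydrolases), beside -0.06 for all genes. There 1 hydrolase gene was higher, where 2.90% of all genes were, and 0 genes of these lists were lower, where 4.58% were.

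Genes that act on cathepsins directly were near level too. Of 4 other cathepsins measured 0 passed (median 0.00), with Ctsa at 433 and 514 CPM (-0.25) and Ctso at 0.06. Of 3 inhibitors 0 passed, with Cst3, the secreted cystatin C, at 2426 and 2360 CPM (0.04) and Serpinb6a at -0.41. Of 9 genes of the mannose 6-phosphate and other sorting routes 0 passed (median -0.14), with Igf2r at -0.46 and M6pr at 0.18. Among 5 lysosomal transcription factor genes 1 was lower, where 4.67% of all genes were. It was Bhlhe41 (7.78 and 13.5 CPM, -0.80), close to the limit of 10 CPM. Of the 2 that averaged 50 CPM or more, 0 passed. Tfe3 was at 83.2 and 78.2 CPM (0.09).

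The osteoclast genes known to go with Ctsk in bone lay nearer to 0 than Ctsk. Of 4 measured in macrophages 0 passed (median -0.14), with Acp5 at -0.38, Atp6v0d2 at -0.53 and Tnfrsf11a, the receptor that starts osteoclast formation, at 0.21. In lipid-associated cells 0 of 5 passed (median -0.06). Of 9 matrix genes, whose products cathepsins can cut outside the cell, 8 were lower in knockout macrophages, where 4.67% of all genes were (median -1.86; this list shares collagen genes with the progenitor markers), with Col1a1 at 9.56 and 52.4 CPM (-2.45) and Fn1 at 330.4 and 333 (-0.01). In progenitors 3 of 10 were lower, where 7.41% of all genes were (median -0.50).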

How the data were processed

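Gene counts came from 2 single-cell libraries, 1 per genotype. The deposited values are raw UMI counts per gene and cell barcode, made by the authors with Cell Ranger 5.0.0 on mm10, and Seurat 4.1.1 is also named, per the submitters' processing notes. Which filter chose the deposited barcodes is not given in the sources used here.

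Kept cells had 500 or more UMIs, 200 or more genes and no more than 20% of UMIs from mitochondrial genes, and cells with a Scrublet doublet score of 0.25 or more were removed (435 knockout, 478 wild-type). Gates used marker UMIs per 10000 UMIs, with at least 4 marker UMIs and limits set once panel counts were seen. The minimum of 4 was not asked of the lipid, resident and interstitial markers that divide gates, nor of mast and erythroid markers. UMIs were summed per gate and library. Poisson and Clopper-Pearson intervals are exact at 95%. Shares of cells with a UMI of a gene used 2000 UMIs per cell, except where given without thinning. Shares of cells at 1000 CPM or more of Ctsk used all UMIs of each cell. Clusters (scanpy 1.11.5, Leiden resolution 1, 2000 variable genes, 30 components, 20 neighbours) left out the 9 genes. The interval script was checked on simulated data.

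The 9 genes, the gene lists and the limit for Ctsk-high cells were chosen with earlier results of these data known. Named genes were the 9, the 3 genes most like each, and those of 10 pathway lists with the highest level and the largest ratios. Alternatives were other filters, scalings, gate limits, a T-cell subtraction and left-out cells.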

Additional observations from a re-analysis of the deposited data

Results flagged for a closer look

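Ctsc went in opposite directions in a pair of non-macrophage gates, and the difference between them was not tested. In endothelial cells it was higher in the knockout library, with a log2 ratio of 0.97 (0.26 to 1.73; 57.8 and 29.5 CPM, from 70 and 22 UMIs). In interstitial progenitors it was lower, with a log2 ratio of -1.89 (9.14 and 33.9 CPM, from 53 and 241 UMIs). T cells held 53.8 and 97.4 CPM of Ctsc, more than interstitial progenitors in each library. With a T cell's UMIs taken off each cell, -18.3 and -18.4 CPM were left in interstitial progenitors and 24.4 and -31.0 CPM in endothelial cells. Neither gate then gave a ratio. T cells can carry Ctsc transcripts of their own. The summed macrophage markers were at 558 and 517 CPM in the endothelial gate and at 126 and 470.0 CPM in interstitial progenitors, and their part in the Ctsc values was not tested.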

How the results depend on the processing

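No paired analysis was possible because each genotype had 1 library, so no replicate could be left out either. Over 556 log2 ratios of the 9 genes recomputed under other settings, 527 kept their direction, 29 did not and 12 moved over 1.5 times. The Ctsk ratio in macrophages, -2.13 as reported, was -2.03 with the median of all genes taken off, -1.71 as a mean of per-cell levels, -2.34 with gates set on thinned cells and -1.69 with equal weight per state. In lipid-associated macrophages it was -1.18 as a mean of per-cell levels, -1.01 with gate limits doubled and -1.67 without the richest cell, the last chosen after seeing the data. The count of 1 gene higher in macrophages (Ctsc) became 0 under the per-cell mean, doubled limits, equal weight per state and a fold of 2. The 6 genes lower in progenitors became 2 after the T-cell subtraction, where Ctss and Ctsc gave no ratio because their knockout values fell below 0. With limits doubled the lipid-associated share of macrophages was 6.83% (knockout) against 13.1% (wild type). In the type 2 dendritic gate the Ctsk ratio went from 0.17 to -2.56 as a per-cell mean, -2.46 under the stricter filter and 0.86 after the T-cell subtraction. That gate gave no value where the gate also had to be the most common of its cluster, since no cell remained. The greater depth per cell of the knockout library limits comparisons of shares of cells to thinned cells.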
